A study of Mus musculus with 2 samples.

Results

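Classical Ly6c2 monocytes were described in 2 droplet single-cell RNA libraries of subcutaneous tumours. A kept barcode was counted as a member if Lyz2 made up at least 0.2% of its UMIs (unique molecular identifiers, each standing for 1 captured RNA molecule), C1qa, C1qb and C1qc together under 0.3% and S100a8 and S100a9 together under 0.5%, and if Ly6c2, Plac8, Chil3, Ms4a4c and Ccr2 summed to at least 3 UMIs. This rule found 281 members among 7210 kept barcodes of the PKCi library and 283 among 6380 of the control library, 564 of 13590 in all. Members were thus chosen by the measured levels of these 11 genes, whose values below describe what was selected and are not a finding.

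Tumours came from CMT167R cells, a mouse lung carcinoma line given in the labels as resistant to anti-PD1, injected under the skin of wild-type C57BL/6 mice at 1000000 cells per mouse. The PKCi group received a compound labelled PKCi at 3 mg/kg every day into the peritoneal cavity, and the control group received the solvent. Harvest took place once control tumours had grown to 400 mm3, by which time the labels report that tumour volumes differed between the groups. Each treatment had 1 library, and the number of mice behind a library is not stated in the labels. No difference between the libraries has a replicate check, none was tested, and treatment, tumour size, animal and library cannot be told apart. Every interval given is an exact 95% interval for counting error alone.

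Classical monocytes are short-lived blood cells made in the bone marrow. CCR2, the receptor for CCL2 and related chemokines, lets them leave the marrow and enter inflamed tissue and tumours, where they lose Ly6C and turn into macrophages or dendritic-like cells. Interferons, which act through STAT transcription factors, and colony-stimulating factors shape which genes they express on the way.

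The libraries held 229219749 (PKCi) and 222641855 (control) UMIs over all deposited barcodes, and the members held 2792292 and 2909272 of these. A member had a median of 7164 UMIs and 2471 genes in the PKCi library, against 7659 UMIs and 2431 genes in the control library, with medians of 1.52% and 1.80% mitochondrial UMIs. No barcode sequence was a member in both libraries, although 20 deposited barcode sequences occurred in both and 2 members carried one of them.

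Members were 3.90% of kept PKCi barcodes (3.46 to 4.37) and 4.44% of kept control barcodes (3.94 to 4.97), a ratio of 0.879 (0.742 to 1.04). Among the cells with Lyz2 at 0.2% or more and low S100a8 and S100a9, in contrast, they were 27.1% (24.5 to 30.0) in the PKCi library and 44.6% (40.7 to 48.6) in the control library, a ratio of 0.608 (0.514 to 0.720). The other cells of that denominator were more frequent in the PKCi library. C1q macrophages (C1q genes at 0.3% or more) numbered 460 PKCi and 222 control cells, and Ly6c2-low monocytic cells (the same gate as the members but fewer than 3 marker UMIs) numbered 294 and 129.

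Ly6c2 encodes a small surface protein anchored to the membrane by a lipid and lies at chr15:75108158-75111970 (GRCm38, minus strand). It had at least 1 UMI in 74 PKCi members (26.3%) and 156 control members (55.1%), at 126 CPM (UMIs per 1000000 UMIs of the members' sum; 113 to 140) and 393 CPM (371 to 417). Plac8, a cysteine-rich protein of immune cells, lay at 562 CPM in PKCi and 1575 CPM in control members, and Ms4a4c, a four-pass membrane protein, at 61.2 and 175 CPM. Chil3, a secreted chitinase-like protein of mouse myeloid cells, was carried by 70 PKCi and 116 control members, at 159 and 145 CPM. Ccr2 went the other way from Ly6c2, with a UMI in 255 PKCi and 237 control members, at 424 and 357 CPM.

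At least 3 of the 5 markers were present in 33.1% of PKCi members and 65.7% of control members, and 111 PKCi members (39.5%) and 41 control members (14.5%) entered on Ccr2 alone. By this count the label of classical Ly6c2 monocytes was borne out for most control members and for a minority of PKCi members, the rest of which carried 1 or 2 of the 5 markers. Thinning each cell to 5000 UMIs, which left 216 PKCi and 250 control members, gave Ly6c2 in 17.1% of PKCi members (12.4 to 22.8) and 48.8% of control members (42.5 to 55.2). Free RNA was low for this gene, as 0.0794% of thinned PKCi Krt8 cells and 0.305% of control Krt8 cells had a UMI of it (Krt8 at 0.02% or more, no UMI of the leukocyte gene Ptprc). Their median depth before thinning was higher than that of the members, at 35715 UMIs in the PKCi library and 38330 UMIs in the control library.

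The bound on the marker sum lay where PKCi cells were dense. A sum of exactly 3 UMIs was found in 52 PKCi and 22 control members, and a sum of 2, just outside, in 54 and 19 Ly6c2-low monocytic cells. The median sum was 7 in PKCi members and 20 in control members. C1q genes between 0.2% and 0.3% of UMIs were found in 12 PKCi and 7 control members.

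**Figure D1:**
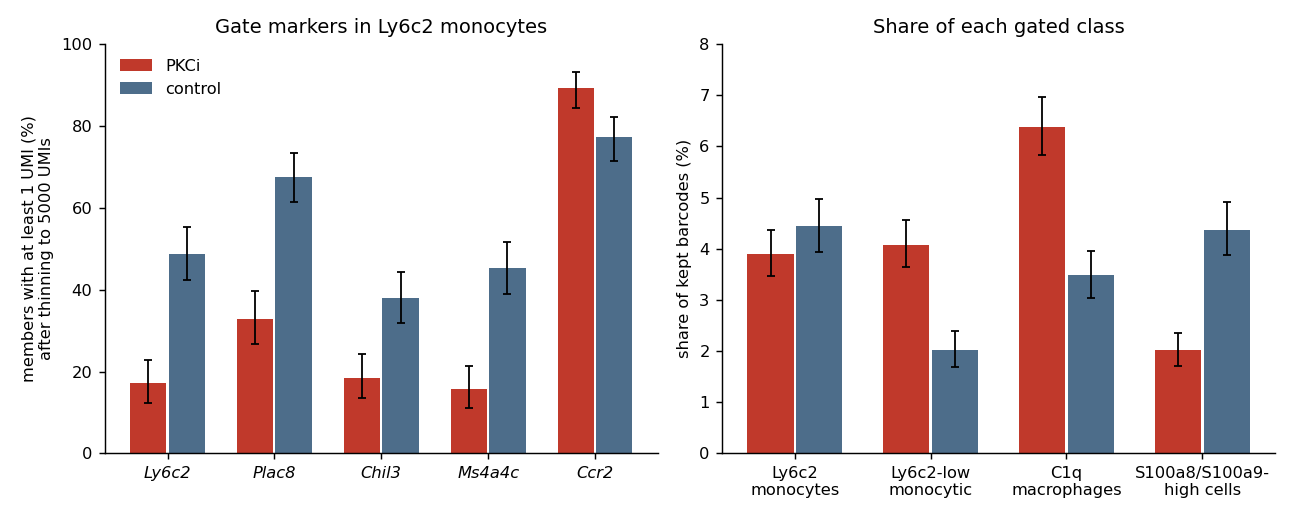
The left panel shows the percentage of members with at least 1 UMI of each gate marker after thinning to 5000 UMIs, and the right panel each gated class as a percentage of kept barcodes, with PKCi in red, control in blue and exact 95% counting intervals as error bars. Ly6c2 was present in 17.1% of thinned PKCi and 48.8% of thinned control members, while the members' share of barcodes was 3.90% and 4.44%.

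Genes that mark other cell types were summed in the members. The 15 T, NK and B cell genes summed to 12.5 CPM in PKCi and 13.1 CPM in control members, against 2473 and 3659 CPM in T or NK cells, and Cd8a, Ncr1, Ms4a1 and Jchain were among those at 0 in both. Of the 13 neutrophil genes, which summed to 554 CPM in PKCi and 633 CPM in control members (15566 and 11857 CPM in S100a8/S100a9-high cells), Ly6g was at 0 in both libraries and Cxcr2, Retnlg, Ngp and Camp in PKCi members only. The 7 carcinoma genes summed to 178 and 208 CPM, against 1174 and 1087 CPM in Krt8 cells, with Krt19 at 0 in both libraries. Krt8 itself reached 0.02% of UMIs in 21 PKCi and 16 control members. The 13 dendritic cell genes summed to 356 CPM in PKCi and 345 CPM in control members. They reached 543 and 546 CPM in C1q macrophages and 603 and 561 CPM in Krt8 cells, so this sum does not tell dendritic cells apart here. The 10 fibroblast and endothelial genes summed to 45.5 CPM in PKCi and 161 CPM in control members, where 1 cell held 90.9% of the Col1a2 and 54.1% of the Col3a1 UMIs. Ly6c1, a close relative of Ly6c2 whose reads can be confused with it, lay at 8.60 and 19.9 CPM.

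Several genes outside the rule set the members apart from the related cells in both libraries. Since the gate separated these cells by expression, the ratios are a description. Hp, the haemoglobin-binding protein haptoglobin, lay at 70.9 CPM in PKCi and 201 CPM in control members, against 1.35 and 2.47 CPM in C1q macrophages and 8.83 and 9.98 CPM in Ly6c2-low monocytic cells. Vcan, the matrix proteoglycan versican made by classical monocytes, lay at 549 and 362 CPM in PKCi and control members, against 32.1 and 27.7 CPM in C1q macrophages. Napsa, an aspartic protease, followed the same order, with 136 and 221 CPM in members and 40.4 and 23.8 CPM in Ly6c2-low monocytic cells.

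The genes highest in members over C1q macrophages were of several kinds. Itga1, an integrin subunit for collagen, lay at 105 CPM in PKCi and 82.8 CPM in control members against 8.11 and 12.1 CPM in C1q macrophages. Plcb1, a phospholipase that makes diacylglycerol, an activator of PKC, lay at 810 and 558 CPM against 90.2 and 68.2 CPM. The 12 genes highest in members over C1q macrophages also included Inhba, which encodes the activin A subunit, Slpi, Mcemp1, Itgb7, Runx2 and Arhgap26.

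The 12 genes lowest in members relative to C1q macrophages were taken among those with at least 50 CPM in that class, so they are high there by choice. Lyve1, a hyaluronan receptor, had 0 UMIs in PKCi and 1 UMI in control members, against 647 and 351 UMIs in C1q macrophages. Gas6, a ligand of the dying-cell receptors AXL and MERTK, lay at 0.716 and 4.12 CPM in members against 212 and 217 CPM. Ccl8, a CC chemokine, lay at 8.24 and 19.2 CPM against 1156 and 2474 CPM, and Folr2, a folate receptor of resident macrophages, at 16.1 and 22.7 CPM against 298 and 322 CPM. Fcna, Ch25h, Pdgfc, Igf1, Cbr2, Atp6v0d2, Tanc2 and Ms4a7 completed this list.

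Against Ly6c2-low monocytic cells, the 12 highest genes held several that interferon is known to induce. Ifi27l2a, an interferon-inducible gene, lay at 385 CPM in PKCi and 835 CPM in control members, against 69.3 and 62.7 CPM in Ly6c2-low cells. Ms4a6c, a membrane protein of the same family as Ms4a4c, lay at 196 and 382 CPM against 43.6 and 99.8 CPM. Rsad2, the antiviral enzyme viperin, Isg15, a ubiquitin-like protein attached to other proteins after interferon, and Ifi209 were also among the 12 highest. On the low side, Mmp12, the macrophage elastase, lay at 435 and 631 CPM in PKCi and control members, against 1604 and 3450 CPM in Ly6c2-low cells, and Hmox1, Ppbp, Mmp13, Ccl8 and Gdf15 were also there.

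**Figure D2:**
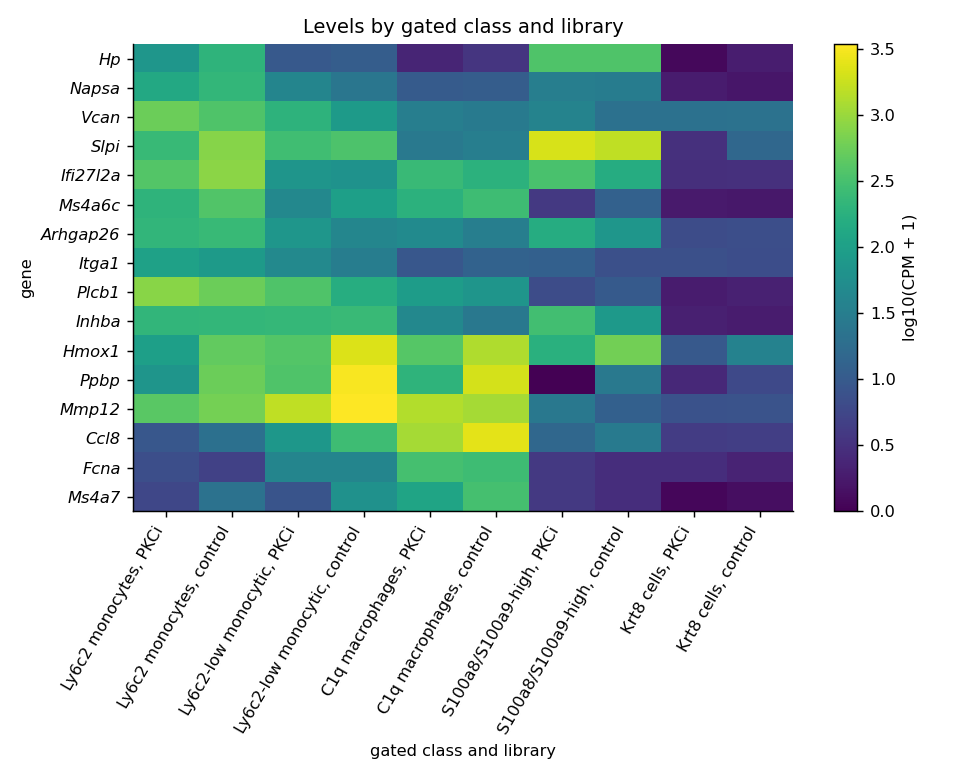
Rows are genes and columns are gated classes, each split into the PKCi and the control library, with PKCi on the left; colour gives log10(CPM + 1) of the summed UMIs. Hp and Vcan were high in the members of both libraries and low in C1q macrophages, while Ccl8, Fcna and Ms4a7 were high in C1q macrophages, and Hmox1 and Ppbp in Ly6c2-low monocytic cells of the control library.

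Members varied along a like axis in each library. In principal components computed for each library without the genes of the rule, the first component held 2.90% of the variance in PKCi and 3.89% in control members, and its gene loadings correlated with r = 0.79 between the libraries over 6505 genes, which share depth and gene abundance. Arg1 (arginase), the neutrophil-attracting chemokines Cxcl2 and Cxcl3, Pf4 (platelet factor 4) and Spp1 (osteopontin) were among the 10 highest loadings in both libraries. Ifi27l2a, Samhd1, a nucleotide hydrolase that restricts viruses, Arhgap26, Cytip and Ptprc were among the 10 lowest in both. The share of a cell's UMIs from the 5 gate markers correlated with this component at r = -0.76 in 216 PKCi cells and r = -0.77 in 250 control cells, and log depth at r = 0.52 and r = 0.41. Cells are not replicates and these values describe the spread within each library.

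Between the libraries, Fn1 (fibronectin), Slc7a2 (an arginine transporter) and Lyz1 (a lysozyme) were among the genes higher in PKCi members, and Cxcl9 (a chemokine), Hmox1 (haem oxygenase) and Mmp8 (a collagenase) among the lower. Of 3243 genes with at least 50 UMIs over both libraries and 50 CPM in at least 1, 229 (7.06%) were at least 1.5 times higher in PKCi members with intervals apart, and 164 (5.06%) were lower by the same rule. Folds of 2 or more were reached by 56 genes upward (1.73%) and 52 downward (1.6%). The higher genes made up 58.3% of these calls when levels were scaled by total UMIs and 39.2% when scaled by the median ratio over genes, which shifted all log2 ratios by -0.09.

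Fn1, which encodes the matrix and plasma protein fibronectin and lies at chr1:71585520-71653200 (GRCm38, minus strand), had the most UMIs among the 12 genes of highest ratio. It lay at 4487 CPM in PKCi and 1129 CPM in control members, a ratio of 3.97 (3.82 to 4.13). It was found in 256 of 281 PKCi members and 222 of 283 control members, and the median cell had 3524 and 443 CPM. The lower quartile of PKCi cells, at 937 CPM, lay below the upper quartile of control cells, at 1352 CPM, so the cells of both libraries overlapped. Fn1 was also higher in PKCi than in control Ly6c2-low cells, at 3506 and 861 CPM, and C1q macrophages, at 2348 and 663 CPM, with ratios of 4.07 and 3.54.

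Lyz1, a second mouse lysozyme next to Lyz2 on chromosome 10, lay at 138 CPM in PKCi and 6.19 CPM in control members, a ratio of 22.3 (13.9 to 38.1). Its UMIs came from 33 PKCi and 13 control members, and reads of the near-identical Lyz2 may be counted to it. Lyz2, a gate gene, lay at 11927 CPM in PKCi and 9980.5 CPM in control members, and its part in the Lyz1 counts was not tested. Slc7a2, a transporter that brings arginine into the cell, lay at 212 and 46.4 CPM, a ratio of 4.57 (3.78 to 5.55). It was found in 92 PKCi and 35 control members.

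The other genes of highest ratio were found in 4 to 106 PKCi members. Car4, a membrane carbonic anhydrase, had 162 UMIs in 21 PKCi members against 2 UMIs in 1 control member, a ratio of 84.4 (22.99 to 703). It lay at 72.8 CPM in PKCi and 4.44 CPM in control Ly6c2-low monocytic cells, and at 50.9 and 57.5 CPM in S100a8/S100a9-high cells. Retnla, a secreted protein of alternatively activated mouse macrophages, had 140 UMIs in PKCi members and 0 in control members, which is at least 48.6-fold higher against a floor of 3 counts in the control sum. Yet 97.9% of its UMIs came from 1 of 4 PKCi cells. Dcstamp, a membrane protein needed for fusion of macrophages and osteoclasts, had a UMI in 67 PKCi and 14 control members, at 84.5 and 16.8 CPM. Cxcl14, a chemokine, was found in 49 and 13 members, at 62.0 and 15.5 CPM. Plxdc2, a membrane protein, was found in 106 PKCi and 52 control members, at 143 and 30.6 CPM. Car6, Prelid2, Tmtc2 and Vsig8 were the other genes among the 12 highest, with ratios between 4.51 and 5.28. Lyz1, Slc7a2, Dcstamp, Cxcl14 and Plxdc2 were also higher in PKCi than in control Ly6c2-low monocytic cells and C1q macrophages. Slc7a2, for example, lay at 261 and 58.2 CPM in Ly6c2-low cells and at 180 and 36.3 CPM in C1q macrophages.

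On the lower side, Hmox1, the enzyme that breaks down haem, lay at 99.6 CPM in PKCi and 492 CPM in control members, a ratio of 0.202 (0.177 to 0.230). It had a UMI in 93 PKCi and 156 control members. In Ly6c2-low cells Hmox1 lay at 395 and 2267 CPM, and in C1q macrophages at 402 and 1302 CPM. Ppbp, a platelet chemokine precursor, lay at 69.8 CPM in PKCi and 544 CPM in control members, a ratio of 0.128, and was found in 23 and 49 members. The 8 red cell and platelet genes summed to 1610 CPM in PKCi and 3105 CPM in control members, nearly all of it Ppbp and Pf4, while the platelet integrin Itga2b and Hbb-bt were at 0 in both. The same list summed to 4303 and 11808 CPM in C1q macrophages.

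Mmp8, the neutrophil collagenase, lay at 25.8 and 166 CPM in PKCi and control members, and Mmp13, another collagenase, at 16.5 and 90.4 CPM. Mmp8 lay at 10.4 CPM in PKCi and 384 CPM in control Ly6c2-low monocytic cells, and at 48.1 and 267 CPM in S100a8/S100a9-high cells. S100a8, a gate gene, lay at 15.4 CPM in PKCi and 76.0 CPM in control members, and the part of neutrophil RNA in the Mmp8 difference was not tested. Ifitm1, an interferon-induced membrane protein that was highest in S100a8/S100a9-high cells, lay at 54.1 and 371 CPM. Slpi, a secreted protease inhibitor, lay at 244 CPM in PKCi and 792 CPM in control members, a ratio of 0.308. Ly6a, the surface antigen Sca-1, and Gpnmb, a glycoprotein of lipid-laden macrophages, had ratios of 0.270 and 0.260.

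**Figure D3:**
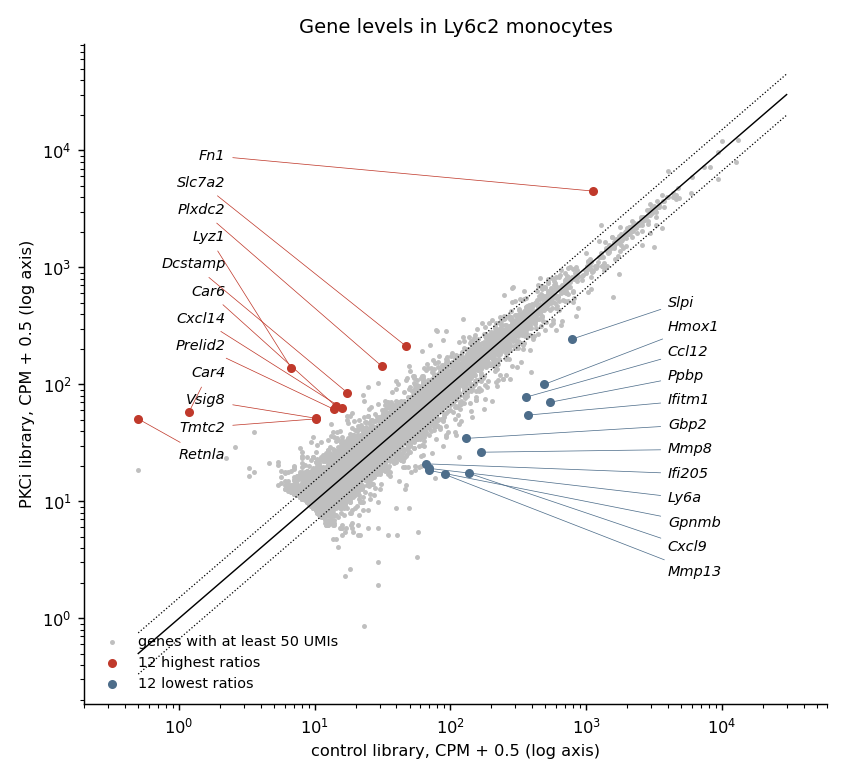
Each point is a gene with at least 50 UMIs over both libraries, placed by its CPM in control (x) and PKCi (y) members, both with 0.5 added on log axes; the solid line marks equal levels and the dotted lines ratios of 1.5. The 12 highest ratios are in red and the 12 lowest in blue, with Fn1 (3.97) far above the line at the high end and Slpi (0.308) and Hmox1 (0.202) below it.

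Summed over all members, interferon-stimulated genes were lower in the PKCi library. The median gate marker sum was 7 in PKCi and 20 in control members, and its part in this difference was not tested. In both libraries Ifi27l2a and Samhd1 lay at the end of the first component where the share of gate marker UMIs was high. Of 28 measured type I interferon-stimulated genes, 0 were higher and 15 were lower, with a median log2 ratio of -0.78, against a median of 0.09 over all 9622 genes with at least 20 UMIs, of which 5.29% were higher and 3.26% lower. The same shares over all genes apply to each list count over all members below. Ifi205, a member of the interferon-inducible p200 family, had 57 UMIs in 25 PKCi members and 192 UMIs in 72 control members, at 20.4 and 66.0 CPM. Oas3, an enzyme that makes the signal for RNA decay, lay at 7.88 and 24.1 CPM. Zbp1, a sensor of Z-form nucleic acids, lay at 38.7 CPM in PKCi and 95.9 CPM in control members. Isg15 lay at 72.3 CPM in PKCi and 153 CPM in control members, a ratio of 0.472 (0.398 to 0.558), and Ifi204, another p200 family member, had a ratio of 0.421 (0.357 to 0.496). Ifit1 and Ifit3, RNA-binding antiviral proteins, had intervals that overlapped between the libraries. In Ly6c2-low monocytic cells the list median was 0.14, with 1 of 23 genes higher and 1 lower (6% and 3.85% of all genes there).

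Interferon-stimulated genes are classically switched on by the factor complex ISGF3, which binds the interferon-stimulated response element. Its core was read here as GAAA, any 2 bases and GAAA again on either strand. It was searched in the 250 bases before each gene start in the windows of the RefSeq promoter table (GRCm38.p6). It was found in 13 of 26 list genes with a window and in 6 of the 12 lower genes with one, against 936 of all 27025 genes with a window (3.46%). This describes the letters in these windows and says nothing of binding in these cells. The stretches below, 60 bases each, 5′ to 3′ on the strand of the gene, are shown for 4 of the lower genes that hold the core, with every match in capitals.
Ifi205 (chr1:174031855-174031914, minus): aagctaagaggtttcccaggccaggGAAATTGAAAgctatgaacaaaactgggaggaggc
Oas3 (chr5:120777700-120777759, minus): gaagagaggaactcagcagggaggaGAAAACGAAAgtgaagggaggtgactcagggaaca
Isg15 (chr4:156200862-156200921, minus): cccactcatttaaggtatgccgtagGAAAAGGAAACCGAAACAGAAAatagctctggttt
Slfn5 (chr11:82951922-82951981, plus): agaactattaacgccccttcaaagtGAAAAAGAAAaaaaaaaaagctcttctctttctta
The capitals of Isg15 hold 3 overlapping matches and those of the other genes 1 each.

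The type I list did not differ alike in members with and without Ly6c2. In members with a Ly6c2 UMI (74 PKCi, 156 control) the median log2 ratio was 0.56, with 5 of 28 genes higher and 0 lower (2.86% and 1.94% of 6854 genes in those cells). The 5 were Rsad2, Cmpk2, Ifi209, Slfn5 and Isg20. In members without one (207 PKCi, 127 control) it was -1.48, with 0 higher and 19 lower (5.86% and 3.25% of 9086 genes). Isg15 lay at 203 CPM in PKCi and 146 CPM in control members with Ly6c2, and at 48.0 and 159 CPM in those without. This split was made after the values were seen, and median depth was 5323 and 7137 UMIs with Ly6c2, 8913 and 8144 UMIs without.

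Per cell, the picture in Ly6c2-positive members rested on a few cells. After thinning, the median member with Ly6c2 had 6 UMIs of the list in the PKCi library and 7 in the control library, the upper quartiles were 18.5 and 12 UMIs, and the highest cells had 148 and 96 UMIs. A single PKCi cell held 20.2% of the list's UMIs in that group. Members without Ly6c2 had medians of 2 and 3 UMIs. At least 3 genes of the list were detected in 36.6% of all thinned PKCi members and 64.4% of control members, against 9.85% and 7.69% of thinned Krt8 cells and 58.4% and 82.7% of members before thinning.

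**Figure D4:**
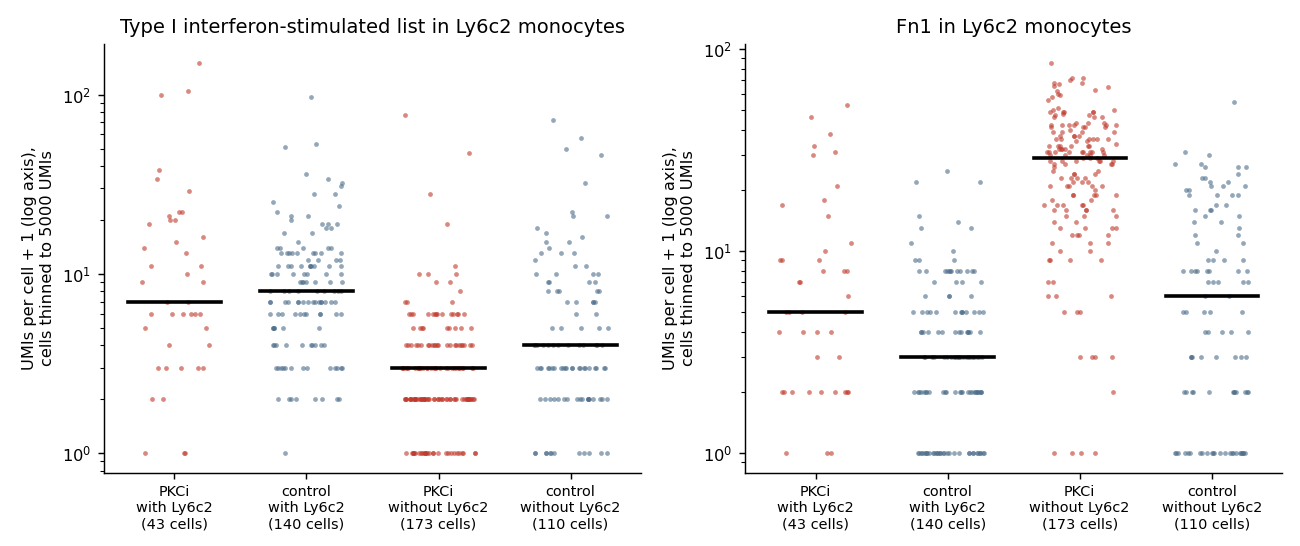
Each point is 1 member thinned to 5000 UMIs, shown as UMIs + 1 on a log axis for the type I interferon-stimulated list (left) and Fn1 (right), split by library (PKCi red, control blue) and by whether the cell had a Ly6c2 UMI before thinning; black bars are medians. List medians were 6 and 7 UMIs with Ly6c2 and 2 and 3 UMIs without, while the Fn1 medians were higher in PKCi cells of both kinds. With Ly6c2, Fn1 ran from 0 to 52 UMIs in PKCi cells and from 0 to 24 UMIs in control cells, so the libraries overlapped.

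Genes induced by interferon gamma, a lymphocyte product, were lower in both kinds of members. Over all members 0 of 20 were higher and 12 lower, against 5.29% and 3.26% of all genes, with a median log2 ratio of -0.74. Cxcl9, a T cell attractant that macrophages make in response to interferon gamma, had 47 UMIs in 12 PKCi members and 399 UMIs in 24 control members, a ratio of 0.123 (0.0887 to 0.166). Nos2, the inducible nitric oxide synthase, had UMIs in 2 PKCi and 21 control members, at 1.79 and 16.2 CPM. Gbp2, a GTPase of defence against intracellular microbes, had 95 UMIs in 40 PKCi members and 380 UMIs in 72 control members, and Irf1, a transcription factor of the pathway, had a ratio of 0.599. The list median was -0.37 in members with Ly6c2 (6 of 16 lower) and -0.87 in those without (10 of 19 lower). Of all genes, 1.94% were lower in members with Ly6c2 and 3.25% in those without. In Ly6c2-low monocytic cells the list median was -0.14, with 0 of 20 higher and 3 lower (6% and 3.85% of all genes there).

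Of 9 MHC class II genes 1 was higher and 0 lower, with a median log2 ratio of 0.04, the exception being H2-DMb2, a chain of the peptide-loading factor, at 10.7 and 2.75 CPM. Cd74, the invariant chain, lay at 1709 CPM in PKCi and 1664 CPM in control members, a ratio of 1.03 (0.987 to 1.07). In the MHC class I list 12 of 13 ratios lay below 1 and the median log2 ratio was -0.34. By the rule 0 were higher and 3 lower, namely the peptide transporter Tap1, the immunoproteasome subunit Psmb9 and H2-T23. In members with Ly6c2 the class I median was -0.05, with 0 of 13 lower (1.94% of all genes there). In those without it was -0.32, with 2 of 13 lower (3.25%). B2m, the light chain of all class I molecules, had a ratio of 0.725 (0.694 to 0.757), short of the 1.5-fold bound. Of 14 checkpoint and costimulatory ligands, Cd80, a ligand of CD28 and CTLA-4, lay at 310 and 178 CPM, and Pdcd1lg2, which encodes the PD-1 ligand PD-L2, at 30.4 and 16.2 CPM, and 0 were lower. Cd274, which encodes PD-L1, lay at 202 CPM in PKCi and 303 CPM in control members, a ratio of 0.667 (0.599 to 0.743) just short of the bound.

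Of 20 chemokine genes measured, 4 were higher and 14 lower in summed UMIs, against 5.29% and 3.26% of all genes, with a median log2 ratio of -0.72. The UMIs of the whole list per thinned cell ran the other way at the pooled median, with 111 in PKCi and 99 in control members, while the upper quartiles were 178.5 and 236.75 UMIs. Within each kind of member the PKCi median was the lower. With Ly6c2 it was 40 UMIs in 43 PKCi members and 43.5 UMIs in 140 control members. Without Ly6c2 it was 123 UMIs in 173 PKCi members and 187 UMIs in 110 control members. The monocyte attractants Ccl2, at 2173 CPM in PKCi and 3598 CPM in control members, and Ccl12, at 77.4 and 362 CPM, were lower, as were the inflammatory chemokines Ccl3 (447 and 875 CPM) and Ccl4 (879 and 1760 CPM). The neutrophil attractant Cxcl2 lay at 5722 and 9373 CPM and Cxcl3 at 1498 and 3145 CPM. Higher were Ccl6, at 6657 CPM in PKCi and 4041 CPM in control members, the eosinophil attractant Ccl24 (816 and 458 CPM), Cxcl14 and Ccl22. Of the 42 PKCi UMIs of Ccl22, a ligand of CCR4, 71.4% came from 1 cell, against 1 UMI in control members.

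The dendritic cell list had 3 of 7 measured genes higher and a median log2 ratio of 1.14, from few cells. Ccr7, the lymph node homing receptor, had UMIs in 5 PKCi and 0 control members, with 84.0% of them in 1 cell. Leaving out cells with genes of other cell types gave a list median of -0.37.

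Inflammatory cytokine genes were split. Il6 lay at 117 and 61.5 CPM in PKCi and control members, and Tnfrsf9, the costimulatory receptor 4-1BB, at 290 and 77.3 CPM, a ratio of 3.75 (3.23 to 4.36). Tnf lay at 109 CPM in PKCi and 224 CPM in control members, and Il10, an anti-inflammatory cytokine, had UMIs in 4 and 14 members. Of 22 genes in the list 4 were higher and 5 lower, against 5.29% and 3.26% of all genes, with a median log2 ratio of -0.10.

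AP-1 and immediate early genes, which respond within minutes to signals and also to tissue dissociation, were more often higher than lower. Of 22 genes, 7 were higher and 1 lower (Fosl1), with a median log2 ratio of 0.34. Nr4a3, an orphan nuclear receptor, lay at 95.3 CPM in PKCi and 24.1 CPM in control members, a ratio of 3.96 (3.03 to 5.23), and Nr4a2 and Nr4a1 had ratios of 2.71 and 1.65. Fosb, an AP-1 subunit, lay at 665 and 283 CPM. Egr3 had 29 UMIs in 14 PKCi members and 1 UMI in 1 control member, a ratio of 30.2 (5.01 to 1234). Jun, the core AP-1 subunit, had a ratio of 0.917. The same list had a median of 0.73 in C1q macrophages, with 12 of 22 higher and 0 lower, where 8.11% of all genes were higher and 3.57% lower. In Krt8 cells its median was 0.44, with 8 higher and 0 lower, against 2.79% and 2.57% of all genes. In Ly6c2-low monocytic cells 6 were higher and 1 lower, against 6% and 3.85% of all genes. The part of tissue dissociation was not tested.

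In the arginine and alternative activation list, 6 of 12 genes were higher and 3 lower, against 5.29% and 3.26% of all genes, with a median log2 ratio of 0.41. The median was 0.17 in members with Ly6c2 and 0.03 in those without. Arg1, which splits arginine into ornithine and urea, lay at 2288 CPM in PKCi and 1283 CPM in control members, a ratio of 1.78 (1.71 to 1.86), and was found in 183 and 131 members. By the rule Arg1 passed as higher in members with Ly6c2 and in neither direction in those without, so the pooled ratio also depends on the mix of the 2 kinds. Klf4, a transcription factor of monocytes, lay at 679 and 288 CPM. Arg2, the mitochondrial arginase, lay at 44.8 and 79.1 CPM, and Nos2 and the cytokine inhibitor Socs1 were the other lower genes.

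Among coagulation and matrix genes 5 of 17 were higher and 2 lower, against 5.29% and 3.26% of all genes. Their median log2 ratio was -0.10, and 0.13 with a marker sum of at least 5 UMIs. F5, coagulation factor V, lay at 103 CPM in PKCi and 28.9 CPM in control members, and F7, factor VII, at 106 and 39.2 CPM. F13a1, the transglutaminase that cross-links fibrin, lay at 154 and 331 CPM, and Serpinb2 at 121 and 255 CPM. The F13a1 ratio was 1.07 (0.881 to 1.29) in members with Ly6c2 and 0.352 (0.303 to 0.408) in those without. Thbs1 (thrombospondin) and Spp1, both abundant in members, had ratios of 1.14 and 0.978.

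**Figure D5:**
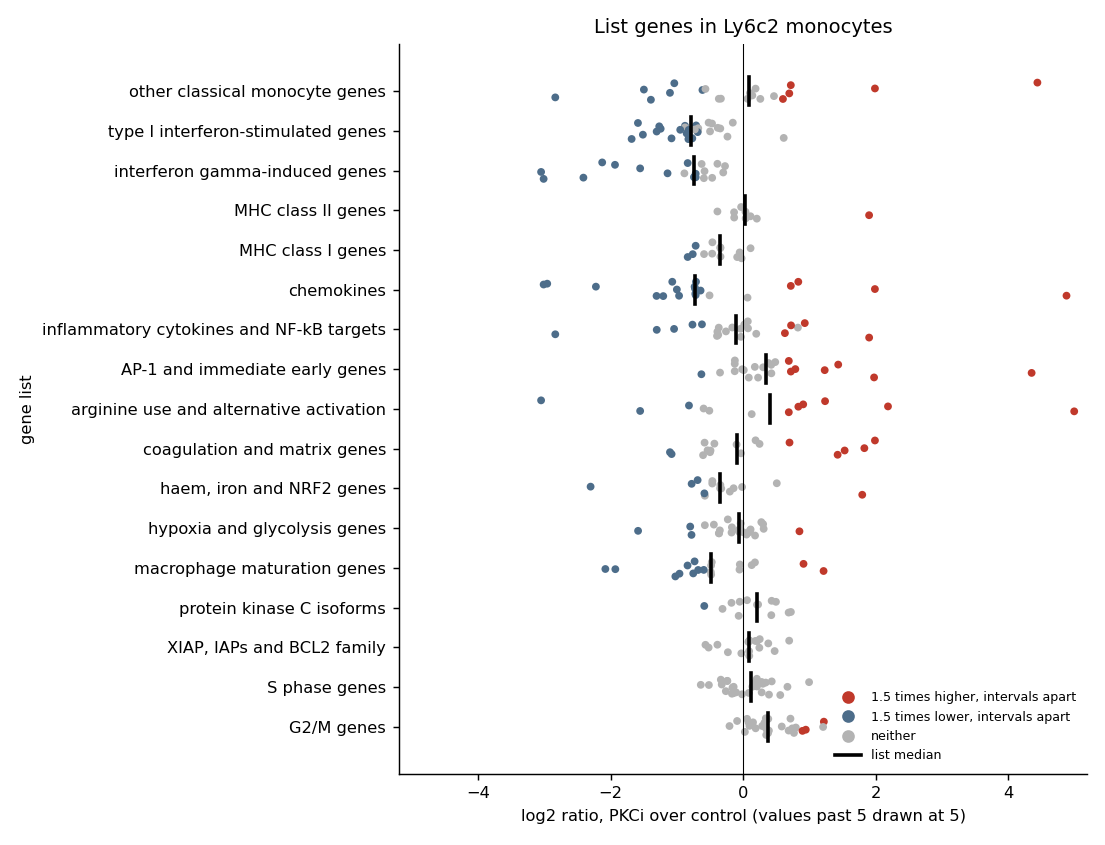
Each point is a list gene with at least 20 UMIs, placed by its log2 ratio of PKCi over control in the members; red and blue points were at least 1.5 times higher or lower with intervals apart, grey points were neither, and black bars are list medians. The type I interferon, interferon gamma and chemokine lists have medians of -0.78, -0.74 and -0.72, and the XIAP and S phase lists hold 0 coloured points.

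Haem, iron and NRF2 genes included 4 lower and 1 higher of 15, against 3.26% and 5.29% of all genes. Fth1, the ferritin heavy chain that stores iron, lay at 7939 CPM in PKCi and 12784 CPM in control members, and Gclm, which helps make the antioxidant glutathione, at 25.8 and 44.3 CPM. Tfrc, the transferrin receptor that imports iron, lay at 31.5 and 8.94 CPM, a ratio of 3.53 (2.26 to 5.69). In the hypoxia list 1 of 25 was higher, the angiogenic factor Vegfa at 507 and 281 CPM, and 3 were lower, with Adm at 5.37 and 16.5 CPM and the lipid droplet gene Plin2 at 334 and 574 CPM. The 1 higher of 25 was near the 5.29% of all genes, where 3.26% were lower.

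Macrophage maturation genes were lower in 9 and higher in 2 of 19, against 3.26% and 5.29% of all genes, with a median log2 ratio of -0.49. In members with Ly6c2, 3 of 16 were lower and 0 higher (1.94% and 2.86% of all genes there). In those without, 12 of 19 were lower and 1 higher (3.25% and 5.86%). Of 19 in Ly6c2-low monocytic cells, 13 were lower and 1 higher (3.85% and 6%). The median was -0.89 in Ly6c2-low monocytic cells and -0.19 in C1q macrophages. Apoe, a lipid carrier, lay at 356 CPM in PKCi and 570 CPM in control members, and Ms4a7 at 4.66 and 20.3 CPM. Axl and Mertk, receptors for dying cells, had ratios of 2.33 and 1.89. Of 12 genes of non-classical monocytes, which patrol blood vessels, 5 were lower, Treml4 at 5.37 and 24.1 CPM among them, and 1 was higher, Nr4a1. The median log2 ratio of that list was -0.54 over all members, 0.22 in those with Ly6c2 and -0.04 in those without. Other classical monocyte genes outside the rule included 5 higher and 6 lower of 20, against 5.29% and 3.26% of all genes. In members with Ly6c2, 4 of 20 were higher and 0 lower (2.86% and 1.94% of all genes there). In those without, 5 were higher and 6 lower (5.86% and 3.25%). Fcgr1, a receptor for antibodies, was among the lower, at 105 CPM in PKCi and 216 CPM in control members.

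Colony-stimulating factor receptors were near equal. Csf1r, the receptor of macrophages for M-CSF, had a ratio of 1.10 (0.991 to 1.22), Csf2ra, the receptor chain for GM-CSF, of 1.21, and Csf2rb of 0.937. Of 15 genes in that list 3 were higher, the feedback inhibitor Socs2, at 35.1 CPM in PKCi and 9.28 CPM in control members, and the survival genes Bcl2a1b and Bcl2a1d, which are near-identical copies and cannot be told apart with certainty.

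Genes for PKC and XIAP, both named in the study's title, showed small differences in the members. Of 13 measured genes for PKC isoforms, related kinases and substrates, 0 were higher and 1 lower, the substrate Marcksl1 at 109 CPM in PKCi and 164 CPM in control members. Prkcd, the isoform with the most UMIs, had a ratio of 1.35 (1.19 to 1.52) and Prkcb one of 1.41 (1.20 to 1.66). In members without Ly6c2, Prkcd and the related kinase gene Prkd3 passed as higher among 12 genes measured, and Marcksl1 as lower. Of all genes in those cells, 5.86% were higher and 3.25% lower. In members with Ly6c2, 0 of 9 were higher and Marcksl1 was lower (2.86% and 1.94% of all genes there). Xiap, an inhibitor of caspases, had a ratio of 1.07 (0.874 to 1.31), while 0 of 17 genes for inhibitors of apoptosis, their antagonists and the BCL2 family passed in either direction. Mcl1 had a ratio of 0.981 (0.924 to 1.04).

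Cell cycle genes were found in a minority. In the S phase list 0 of 28 passed in either direction, and in the G2/M list 3 of 28 were higher (Mki67, Cenpf and Cenpe) and 0 lower. The G2/M median log2 ratio was 0.37 over all members, -0.86 in those with Ly6c2 and 0.21 in those without. With Ly6c2, Mki67 and Top2a were lower among 8 measured, against 1.94% of all genes there. The median was -0.11 where the gate asked for a marker sum of at least 0.02% of UMIs. Mki67, a protein of dividing cells, had UMIs in 31 PKCi and 31 control members, at 46.2 and 24.7 CPM, with 22.5% and 20.8% of them from 1 cell. At least 3 G2/M genes were found in 18.1% (13.2 to 23.8) of thinned PKCi and 14.4% (10.3 to 19.4) of thinned control members, and 26.7% and 32.5% before thinning.

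The remaining lists held few calls. Of 15 stress response genes, 0 were higher and 2 lower, the chaperone genes Dnajb9 and Sdf2l1. Of 18 lysosome and phagocytosis genes, 0 were higher and 2 lower, the protease Ctsb at 613 and 1025 CPM and Cd68 at 202 and 341 CPM. Adhesion and chemokine receptor genes had 2 higher and 2 lower of 17.

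Most of the genes with the largest differences differed the same way in members with and without Ly6c2. Fn1 lay at 1927 CPM in PKCi and 695 CPM in control members with Ly6c2, and at 4964 and 1480 CPM in those without. The sum with Ly6c2 was spread unevenly, as thinned cells ran from 0 to 52 UMIs in PKCi and from 0 to 24 UMIs in control members. Hmox1 had ratios of 0.241 (0.172 to 0.331) and 0.176 (0.152 to 0.203), Cxcl9 of 0.0494 and 0.185, Ppbp of 0.230 and 0.0917, Slc7a2 of 3.26 and 3.94 and Lyz1 of 16.3 and 20.1. In members with Ly6c2, the chemokine list median was -0.97, with 9 of 18 lower and 3 higher (1.94% and 2.86% of all genes there). In those without it was -1.01, with 15 of 20 lower and 2 higher (3.25% and 5.86%). Among exceptions, Mmp13 had a ratio of 0.922 (0.468 to 1.71) with Ly6c2 and 0.100 without, and Car4 had 1 and 0 UMIs in PKCi and control members with Ly6c2.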

How the data were processed

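RNA of dissociated tumours was measured with 10x 3' version 3.1 chemistry, per the labels' protocols. Cell Ranger 7.0.0 wrote the deposited counts of UMIs, per the file headers, for 32285 genes in each barcode. The submitters' processing notes also name GRCm38 and Seurat, with no role given for Seurat.

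Excluded were 200 PKCi and 247 control barcodes with fewer than 500 genes and, of the rest, 47 and 61 whose mitochondrial share exceeded 20%. Members and other classes were gated by gene sums. Doublets were kept, as the rule sets no doublet filter. Members, gates and gene lists were chosen with earlier results of these data known. UMIs were summed per library and class and divided by the total (CPM), with exact Poisson intervals, exact conditional intervals for ratios and Clopper-Pearson intervals for shares. PCR duplicates are collapsed by UMIs, and the intervals cover counting error only.

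A gene was called where its ratio reached 1.5 in either direction and the 2 intervals lay apart. Genes were compared at 50 UMIs over both libraries and 50 CPM in 1, if they reached 10% of the highest level in any gated class, and list genes at 20 UMIs. Log2 ratios, and ratios between classes, had 0.5 count added. The named genes were the 12 highest and 12 lowest called ratios (not naming rule genes, predicted or Y-linked genes, or those of mitochondria, ribosomes, haemoglobin and antigen receptors), the 2 highest and 2 lowest called genes of each list, and the 12 genes highest and lowest against each related class in both libraries, the lowest among genes with 50 CPM in that class. A few further list genes were picked after their values were seen. Members were also thinned to 5000 UMIs. Scrublet (scanpy 1.11.5) at an expected rate of 6%, other gates, scalings and filters were tried as alternatives. Python 3.11.15, numpy 2.4.6, scipy 1.17.1, pandas 2.3.3 and scikit-learn 1.9.0 were used. Values of some genes are not reported here.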

Additional observations from a re-analysis of the deposited data

Results flagged for a closer look

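These results differed in direction between classes or kinds of cells, in libraries without replicates, and none of the differences was tested. All values are PKCi over control. The type I interferon-stimulated list had a median log2 ratio of -0.78 in Ly6c2 monocytes, 0.14 in Ly6c2-low monocytic cells and 0.44 in C1q macrophages. Within Ly6c2 monocytes it was 0.56 in those with a Ly6c2 UMI and -1.48 in those without. The interferon gamma list had medians of -0.74 in Ly6c2 monocytes, -0.14 in Ly6c2-low monocytic cells and 0.36 in C1q macrophages. Among its genes, Gbp2 had ratios of 0.260 in Ly6c2 monocytes and 1.36 in C1q macrophages. The type I gene Ifi205 had ratios of 0.309 and 1.58 in the same classes.

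The non-classical monocyte list had a median of -0.54 in Ly6c2 monocytes, 0.30 in C1q macrophages and 0.38 in Ly6c2-low monocytic cells. Its median within Ly6c2 monocytes was 0.22 in those with Ly6c2 and -0.04 in those without. For neutrophil genes the medians were -0.37 in Ly6c2 monocytes, 0.18 in those with a Ly6c2 UMI and 0.32 in C1q macrophages. G2/M genes had medians of 0.37 in Ly6c2 monocytes and -0.57 in C1q macrophages, but -0.86 in Ly6c2 monocytes with a Ly6c2 UMI and -0.11 under a gate of 0.02% marker UMIs. The arginine and alternative activation list had a median of 0.41 in Ly6c2 monocytes and -0.40 in Ly6c2-low monocytic cells.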

How the results depend on the processing

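The log2 ratio of the members' share was -0.19. It was -0.65 as a share of barcodes with Lyz2 at 0.2% or more and -1.25 for members with a Ly6c2 UMI, a choice made after seeing the data. The 229 higher genes became 151 under median ratio scaling and 506 with 20 UMIs and no CPM minimum, where more genes were compared. The 164 lower genes became 303 with 20 UMIs and 89 in members with Ly6c2, where fewer cells were summed. The dendritic list median turned from 1.14 to -0.37 when cells with genes of other types were left out, and the type I interferon list median from -0.78 to 0.56 in members with Ly6c2, and the cause was not tested. Of 334 list medians under the alternatives, 29 had another sign than reported, those 2 included, most of them of lists with medians near 0. Members with Ly6c2 gave medians of -0.86 for G2/M, -0.51 for S phase, 0.22 for non-classical monocyte, 0.18 for neutrophil and 0.12 for lysosome genes. The 0.02% marker gate gave -0.11 for G2/M genes, and leaving out cells with genes of other types -0.22 for S phase and 0.24 for carcinoma genes. The carcinoma median was 0.09 without called doublets. The causes were not tested. Of the named gene ratios, 225 stayed close and 63 moved. Scrublet called 6 PKCi and 9 control members, and 1.83% and 1.74% of kept barcodes. No paired analysis was possible because each treatment had 1 library. Genes under the UMI minimum were not compared, and with 1 library per treatment no depth can replace replicates.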
